A study of Xenopus tropicalis with 8 samples.

Results

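The genes read here in frog testis serve steroid synthesis and steroid conversion: star, fdx1, por, cyp21a2.1, hsd17b1, hsd17b2, hsd11b2 and sts. They were chosen by name, as the genes with these symbols whose RefSeq transcript matched the accession printed for a probe. No value entered that rule, but the genes were chosen with earlier results of these data known. They were 8 of the 4639 named genes matched to a probe in this way. Of the array's 32899 probes, only 4872 matched a gene with a name other than a provisional one. A gene without a match may therefore still be on the array. Each of the 8 genes matched 1 probe, and all 8 were among the 25652 probes tested. Testes came from juvenile males of Xenopus (Silurana) tropicalis, and the tissue was kept in L-15 medium for 6 h at 26 °C. One group of 4 arrays held tissue with finasteride at 5 µM, a drug that blocks steroid 5-alpha-reductase, and the other group of 4 held tissue without it (0 µM). The study's design lists 8 samples for each treatment, of which 4 arrays each were used here. Arrays are called control 1 to 4 and finasteride 1 to 4. The tissue was whole, so fewer cells of a type and less RNA per cell cannot be told apart. Whether an array held the tissue of a single animal or a pool is not in the labels. The p-values therefore speak only of the spread among these 8 samples, part or all of which may be technical.

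Vertebrate steroid hormones are made from cholesterol, which has to reach the inner mitochondrial membrane before its side chain can be cut off. Cytochrome P450 enzymes then cut and hydroxylate the steroid with electrons passed on by partner proteins, and hydroxysteroid dehydrogenases turn alcohol groups on the steroid into ketones or back. In the testis, Leydig cells carry out most of this work and release androgens, while conversion and sulfatase enzymes in many tissues set how much active hormone is present locally.

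Levels are log2 of the processed Cy3 intensity relative to the 75th percentile of the same array, so 0 stands for that percentile and a difference of 1 for a doubling. That percentile itself lay between 719 and 1798 intensity units. The scanner software marks a spot as well above background when its signal clearly exceeds the background, and 70.5% to 86.9% of all probes had such a spot on an array. The 8 arrays lay on 2 slides. Control 1, control 2, finasteride 3 and finasteride 4 shared slide 1, and control 3, control 4, finasteride 1 and finasteride 2 shared slide 2, each slide with a scan of its own. Within both slides the controls lay at positions 1 and 3 and the finasteride arrays at positions 2 and 4, so treatment and position on the slide cannot be told apart. Of 15 germ cell markers listed, 3 matched a probe. Of these, piwil1 and spata6 were well above background on all 8 arrays, whereas sycp3 was not on any array. Of 12 Sertoli cell markers listed, 3 matched a probe, and these (ar, cldn11 and krt18.2) were well above background on all 8 arrays. The probes of sycp3 and cldn11 are marked xhyb and may not read only their own transcript.

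No steroid gene differed between finasteride and control arrays beyond the spread between arrays. Means were higher with finasteride for fdx1, hsd17b2, hsd11b2 and sts and lower for star, por, cyp21a2.1 and hsd17b1, by at most 0.39 on the log2 scale in either direction. The adjusted p from limma was 1.00 for each of the 8 genes, and 0 of 8 passed at an unadjusted p of 0.05 either. Over all 25652 probes, 0 or 0.00% passed the adjusted threshold, with a lowest adjusted p of 0.191, and 4.00% passed the unadjusted one. The groups overlapped for all 8 genes, where 2.08% of all probes tested had groups that did not overlap. The median difference was -0.07 over the 8 genes and 0.0063 over all probes, and the median size of a difference was 0.27 and 0.137 in that order. The 95% intervals reached between 0.38 and 0.92 to either side of the 8 differences, so changes within them remain possible with 4 arrays a group. These widths are not a limit of detection, because the intervals are not adjusted and the threshold was adjusted over all 25652 probes.

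The product of star carries cholesterol to the inner mitochondrial membrane. Its level was -0.12, -1.15, 0.050 and -0.04 on control 1 to 4 and -0.83, -1.003, -0.11 and -0.62 on finasteride 1 to 4. Control 1, 3 and 4 lay close to the 75th percentile and control 2 lay far below them, lower than every finasteride array. Finasteride arrays covered most of the same range, with finasteride 3 at the upper end. The means were -0.31 ± 0.56 in controls and -0.64 ± 0.39 with finasteride (SD, n = 4), a difference of -0.33 with a 95% interval from -0.996 to 0.34 (limma, adjusted p = 1.00). The difference was -0.61 without control 2 (limma, unadjusted p = 0.0322, adjusted p = 1.00) and -0.51 without finasteride 3. It was -0.21 without control 3 and -0.21 without finasteride 2. Both star spots were well above background on every array, with mean intensities from 503 to 1746.

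Ferredoxin, encoded by fdx1, hands electrons to the mitochondrial P450 enzymes, among them the one that cuts the cholesterol side chain. Levels of fdx1 were -0.15, -0.81, -0.06 and -0.55 on control 1 to 4 and 0.62, -0.68, -0.02 and 0.06 on finasteride 1 to 4. The highest value belonged to finasteride 1, while control 2, finasteride 2 and control 4 were the 3 lowest, so both groups held low arrays. The means were -0.39 ± 0.35 and -0.01 ± 0.53 (SD, n = 4). Their difference of 0.39 had a 95% interval from -0.25 to 1.02 (limma, adjusted p = 1.00), or 0.842-fold to 2.03-fold. It was 0.18 without finasteride 1, 0.25 without control 2 and 0.61 without finasteride 2, the last with an unadjusted p of 0.0398 and an adjusted p of 0.961 from limma. From the lowest to the highest array, fdx1 spanned 2.69-fold.

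The product of por, cytochrome P450 oxidoreductase, is the electron donor of the P450 enzymes of the endoplasmic reticulum, including the 17- and 21-hydroxylases. Its levels were 1.37, 1.52, 1.35 and 1.55 on control 1 to 4 and 1.02, 1.60, 1.27 and 1.16 on finasteride 1 to 4. Finasteride 1, 4 and 3 lay below all controls, but finasteride 2 was the highest of the 8. The means were 1.45 ± 0.10 and 1.26 ± 0.25 (SD, n = 4), with a difference of -0.19 and a 95% interval from -0.57 to 0.19 (limma, adjusted p = 1.00). It was -0.11 without finasteride 1 and -0.30 without finasteride 2. The range over the 8 arrays was 1.49-fold, the narrowest of the 8 genes, and only 11.6% of all probes tested had a smaller pooled SD.

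The gene cyp21a2.1 is annotated as a steroid 21-hydroxylase, the enzyme that in mammals sends progesterone derivatives towards corticosteroids in the adrenal cortex. It was dim, with intensities from 26.5 to 86.7. Levels were -4.62, -4.31, -5.00 and -3.93 on control 1 to 4 and -5.08, -4.68, -4.26 and -5.33 on finasteride 1 to 4. Finasteride 4 was lowest and control 4 highest, with the others interleaved. The means of -4.46 ± 0.45 and -4.84 ± 0.47 (SD, n = 4) differed by -0.37, with a 95% interval from -1.02 to 0.27 (limma, adjusted p = 1.00). Without control 4 they differed by -0.197, without finasteride 4 by -0.21 and without finasteride 3 by -0.57. Both of its spots were well above background on 7 arrays, and on finasteride 4 only 1 of them was. Values near the background carry more error: the scanner software's error estimate was 13.8% of the signal at the median for this gene against 10.2% for hsd17b2.

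Of the 17-beta-hydroxysteroid dehydrogenases, hsd17b1 in mammals makes estradiol from estrone. Its levels were -1.75, -1.92, -2.24 and -1.83 on control 1 to 4 and -1.93, -2.60, -1.91 and -2.09 on finasteride 1 to 4. Control 1 was highest and finasteride 2 lowest. Control 3 lay below the other controls, and the remaining arrays lay between -2.09 and -1.83. The means were -1.94 ± 0.21 and -2.13 ± 0.32 (SD, n = 4), and the difference was -0.19 with a 95% interval from -0.64 to 0.26 (limma, adjusted p = 1.00). The difference was -0.04 without finasteride 2 and -0.296 without control 3.

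In mammals hsd17b2 works in the other direction, turning estradiol and testosterone into their weaker keto forms. Its levels were -1.90, -2.63, -2.51 and -2.23 on control 1 to 4 and -2.65, -2.35, -0.88 and -2.03 on finasteride 1 to 4. Finasteride 3 stood above the other 7 arrays, and finasteride 1 was the lowest of all. The means were -2.32 ± 0.33 and -1.98 ± 0.77 (SD, n = 4). Their difference of 0.34 had a 95% interval from -0.45 to 1.13 (limma, adjusted p = 1.00) and was -0.02 without finasteride 3, so that array carried the direction. It was 0.56 without finasteride 1.

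The product of hsd11b2 inactivates cortisol and corticosterone in mammals and is best known from the kidney tubule. Levels were -3.21, -3.90, -2.68 and -3.28 on control 1 to 4 and -2.94, -4.49, -2.63 and -2.82 on finasteride 1 to 4. Finasteride 2 was far below the other finasteride arrays and control 2 was the lowest control. The gene spanned 3.63-fold over the 8 arrays, with a pooled SD of 0.70 that was larger than that of 89.5% of all probes tested. The means of -3.27 ± 0.50 and -3.22 ± 0.86 (SD, n = 4) differed by 0.05, with a 95% interval from -0.87 to 0.97 (limma, adjusted p = 1.00). The difference was 0.47 without finasteride 2 and 0.24 without control 3. Without control 2 or finasteride 1, 3 or 4 it was -0.16, -0.045, -0.15 and -0.084 in that order, so its sign rested on single arrays.

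Steroid sulfatase, encoded by sts, frees steroids from their sulfated storage and transport forms. It was the only one of the 8 genes without a spot well above background on every array, failing on control 1 and finasteride 4. By that measure 62 of the 64 gene-by-array values were well above background. Both sts spots were well above background on 4 arrays, and on control 4 and finasteride 1 only 1 of them was. Levels were -5.26, -4.99, -5.01 and -5.42 on control 1 to 4 and -5.40, -4.85, -4.59 and -4.99 on finasteride 1 to 4. The groups lay over each other, with the 2 highest values on finasteride 3 and finasteride 2. The means were -5.17 ± 0.21 and -4.96 ± 0.34 (SD, n = 4), with a difference of 0.21 and a 95% interval from -0.25 to 0.67 (limma, adjusted p = 1.00). It was 0.088 without finasteride 3, 0.13 without control 4 and 0.36 without finasteride 1.

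**Figure D1:**
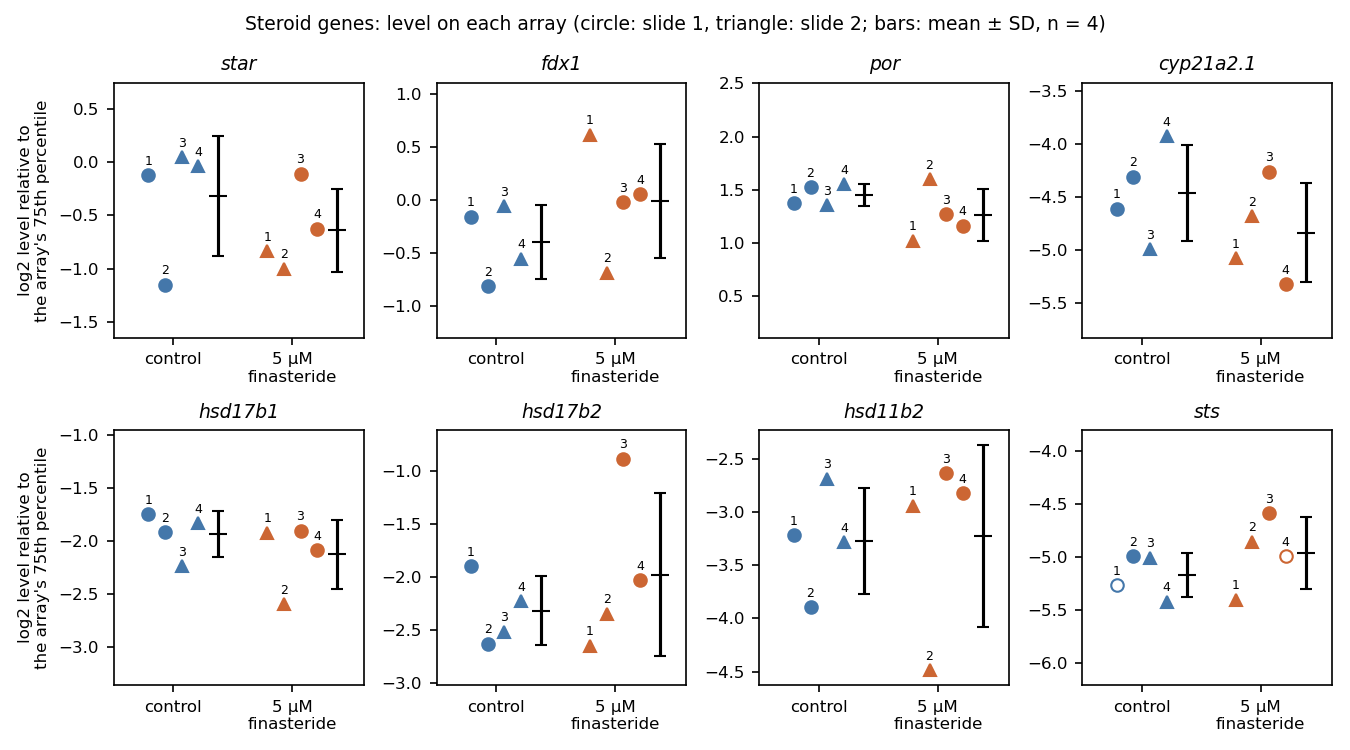
Level of each steroid gene on the 8 arrays, as log2 intensity relative to the array's 75th percentile (vertical axis, 2.4 log2 units in each panel), by group. Circles are slide 1, triangles slide 2, an open marker has no spot well above background, and bars give the mean ± SD (n = 4); the groups overlap in all 8 panels, with control 2 low for star and finasteride 3 high for hsd17b2.

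The spread was wider with finasteride than in controls for 7 of the 8 genes, star being the exception. Over all probes tested the finasteride arrays also spread more widely, for 71.2% of them, with median SDs of 0.228 in controls and 0.350 with finasteride. The pooled SD had a median of 0.46 over the 8 genes against 0.32 over all probes, and 5 of the 8 genes lay above that value.

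Within the slides, each holding 2 arrays of either group, the differences ran the same way on both slides for fdx1 (0.50 on slide 1 and 0.27 on slide 2), por (-0.23 and -0.14), cyp21a2.1 (-0.33 and -0.42), hsd17b1 (-0.16 and -0.22) and sts (0.34 and 0.09). They ran in opposite directions for star, with 0.27 on slide 1 and -0.93 on slide 2. The same held for hsd17b2, with 0.80 and -0.12, and for hsd11b2, with 0.83 and -0.73. The change in the finasteride difference from slide 1 to slide 2 was tested as an interaction in limma. With this layout, that change sets the arrays numbered 1 and 2 in both groups against those numbered 3 and 4. It therefore cannot be told apart from a difference between replicate numbers. For hsd11b2 it was -1.56 with a 95% interval from -3.23 to 0.11 (unadjusted p = 0.0631), and for star -1.20 with an interval from -2.42 to 0.02 (unadjusted p = 0.0538). Their limma adjusted p was 1.00. Of the 25596 probes with a value on every array, 0 passed this test after adjustment and 1.33% passed it at an unadjusted p of 0.05.

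**Figure D2:**
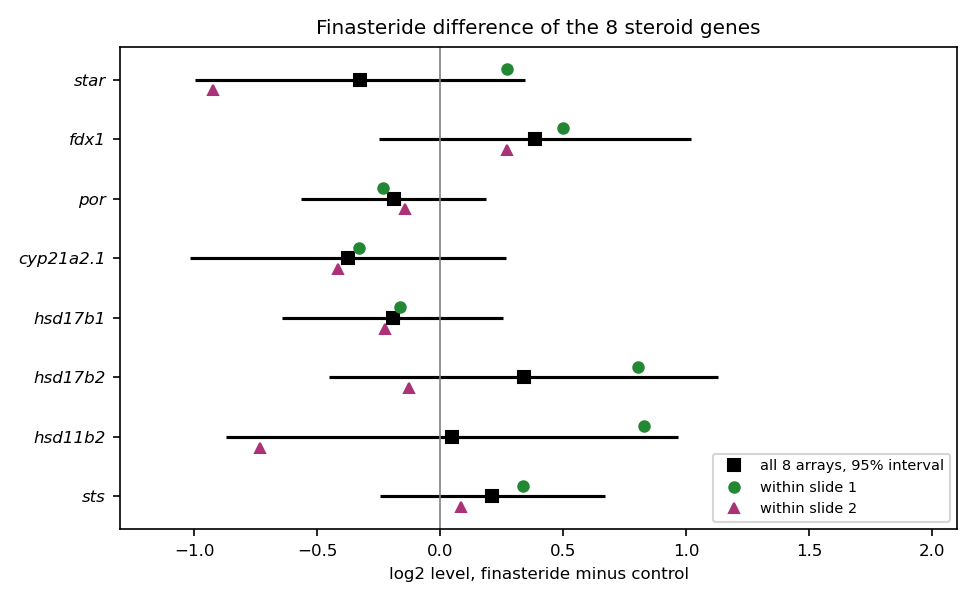
Difference between finasteride and control arrays for each steroid gene on the log2 scale, with the 95% confidence interval of the limma fit and the differences within slide 1 and slide 2. All 8 intervals include 0, and star, hsd17b2 and hsd11b2 have slides on opposite sides of 0.

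On each array 6 of the genes were printed as 2 spots, and por and hsd17b1 as 1, so the gap between spots could be set beside the spread between arrays. A gap between single spots and an SD of spot means are not on the same scale, so the comparison is rough. The gap between the spots of a gene on the same array had a median of 0.18 on the log2 scale for star, 0.17 for fdx1, 0.05 for cyp21a2.1, 0.07 for hsd17b2 and 0.10 for hsd11b2. These median gaps were below the pooled SDs between arrays, which were 0.48, 0.45, 0.46, 0.59 and 0.70 in the same order. On its dimmest arrays cyp21a2.1 had wider gaps, 0.31 on control 1, 0.44 on finasteride 1 and 0.67 on finasteride 4. The last exceeded its pooled SD, so the order of these arrays is uncertain. For star and fdx1 the same spot was the brighter one on every array, so their gaps hold a shared offset and not error alone. For sts the median gap of 0.37 exceeded its pooled SD of 0.28, so the order of its arrays is uncertain. Over all probes tested that were printed more than once, the median gap was 0.0916. Single arrays disagreed more: the hsd11b2 spots read 194 and 356 intensity units on control 3, the largest gap of any of the 8 genes at 0.88.

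**Figure D3:**
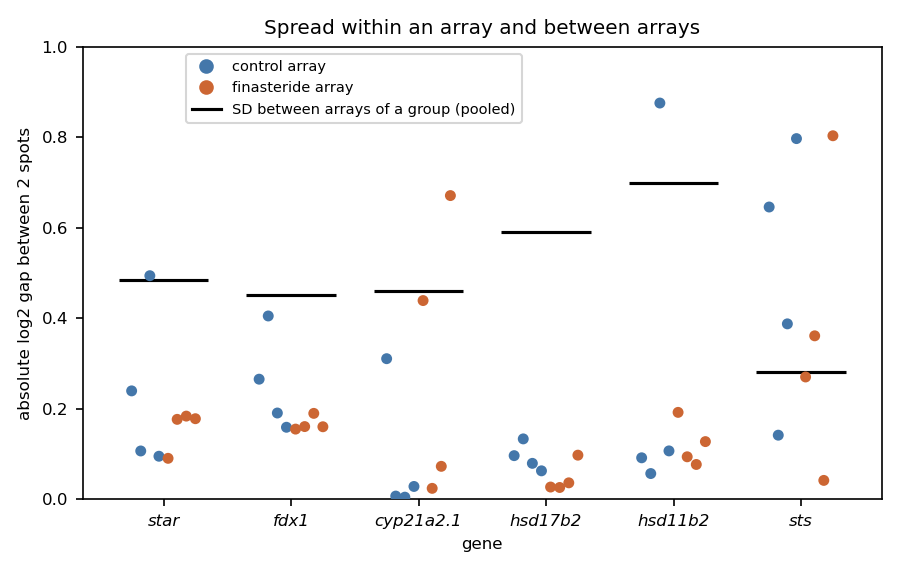
Absolute gap between the 2 spots of a gene on each array (vertical axis, log2 units), for the 6 genes printed as 2 spots, with control and finasteride arrays in different colours. The black line is the pooled SD between arrays of a group, and only for sts does the median gap of 0.37 exceed it.

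The 8 genes were also compared with each other over the 8 arrays, both groups together, in 28 pairs. Pearson's r was positive in 17 pairs and negative in 11, with a median of 0.16, and the size of r had a median of 0.285. Only fdx1 and por passed the threshold after Benjamini-Hochberg adjustment over the 28 pairs by Pearson's r, and 0 pairs passed by Spearman's rho. Pairs with r of at least 0.8 in size made up 1 of 28 or 3.57%, where 4.82% of all pairs of the 22413 probes that were well above background on all 8 arrays reached that size. The share among the 8 genes was thus no larger than that among these probes. The sets are not quite alike, since sts, part of some of the 28 pairs, was not among the 22413 probes.

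Levels of fdx1 and por ran opposite to each other over the arrays. The arrays with the most fdx1, finasteride 1 and finasteride 4, had the least por, and finasteride 2, control 2 and control 4 had little fdx1 and the most por. Pearson's r was -0.957 (exact permutation test, two-sided, p = 0.000397, adjusted p = 0.0111, n = 8 arrays) and Spearman's rho -0.929 (exact permutation p = 0.00223, adjusted p = 0.0625). Without finasteride 1 and control 2, the arrays farthest from the median of fdx1, r was -0.961. It was -0.948 with each group centred on its mean and -0.977 with each slide centred, while the 4 arrays of a slide are too few for a value within it. Each fdx1 spot alone gave -0.943 and -0.966 with por, and leaving out 1 array at a time gave -0.974 to -0.919. The adjusted p of the exact permutation test was 0.10 without finasteride 1 and 0.0722 without finasteride 4.

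Other probes were related to these genes as strongly. Among the 22413 probes, 0.161% were as strongly related to fdx1 as por was, and 0.143% were as strongly related to por as fdx1 was, in either direction. Both shares count the probes of fdx1 and por themselves. The first principal component of the other tested probes, which held 30.4% of their variance, moved with fdx1 over the arrays with r = 0.925 (exact permutation p = 0.00126, adjusted p = 0.0304 over 24 relations, n = 8; rho = 0.810). Without the 2 arrays farthest from the median of that component, r was 0.874. With por its r was -0.887 (adjusted p = 0.0515, exact permutation) and with cyp21a2.1 -0.840 (adjusted p = 0.0699). When that component was regressed out of both genes, the fdx1 and por relation had r = -0.779. Its part in the relation was not tested further. The level of sts moved with the arrays' 75th percentile intensity with r = 0.837 (exact permutation p = 0.0111, adjusted p = 0.0699, n = 8), which did not pass the threshold. With the same measure hsd17b1 had r = -0.689 (exact permutation p = 0.0445, adjusted p = 0.214), and the dim cyp21a2.1 had r = -0.038. Each level already has that percentile subtracted, a shared term that by itself pulls r downward. For hsd17b1 and cyp21a2.1 these tests therefore cannot tell a relation from the shared term. The r of sts was positive, opposite to that pull, and was not tested further.

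**Figure D4:**
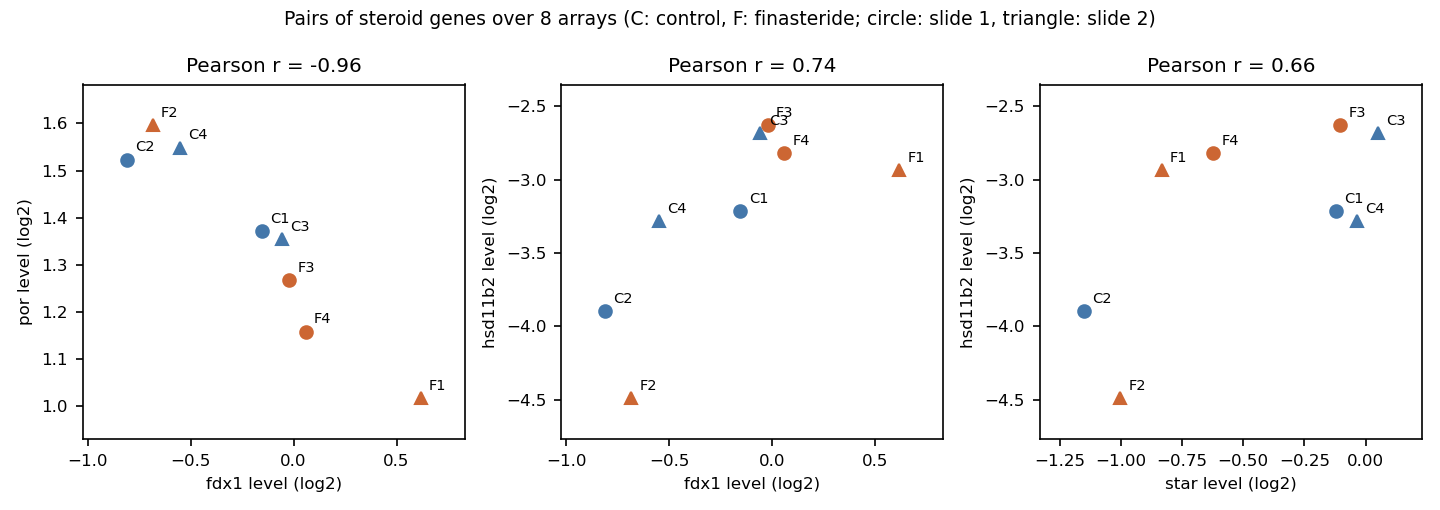
Levels of pairs of steroid genes on the 8 arrays (both axes log2 intensity relative to the 75th percentile, labelled by group letter and array number, circles for slide 1 and triangles for slide 2). The fdx1 and por arrays fall along a line of negative slope with r = -0.957, and the arrays scatter more widely for fdx1 with hsd11b2 (0.740) and star with hsd11b2 (0.661).

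The relations with hsd11b2 were the next strongest and none passed the threshold. With fdx1, hsd11b2 had r = 0.740 (exact permutation p = 0.0345, adjusted p = 0.414, n = 8; rho = 0.762) and 0.873 without finasteride 1 and control 2, the arrays farthest from the fdx1 median. With por it had r = -0.719 (exact permutation p = 0.0444, adjusted p = 0.414; rho = -0.762) and -0.752 without finasteride 1 and finasteride 2, farthest from the por median. Both relations varied with the hsd11b2 spot read. Each spot alone gave 0.793 and 0.652 with fdx1, and -0.805 and -0.602 with por. The pair of star and hsd11b2 had r = 0.661 (exact permutation p = 0.0691, adjusted p = 0.449), which was -0.062 without control 2 and finasteride 2, so it rested on them.

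**Figure D5:**
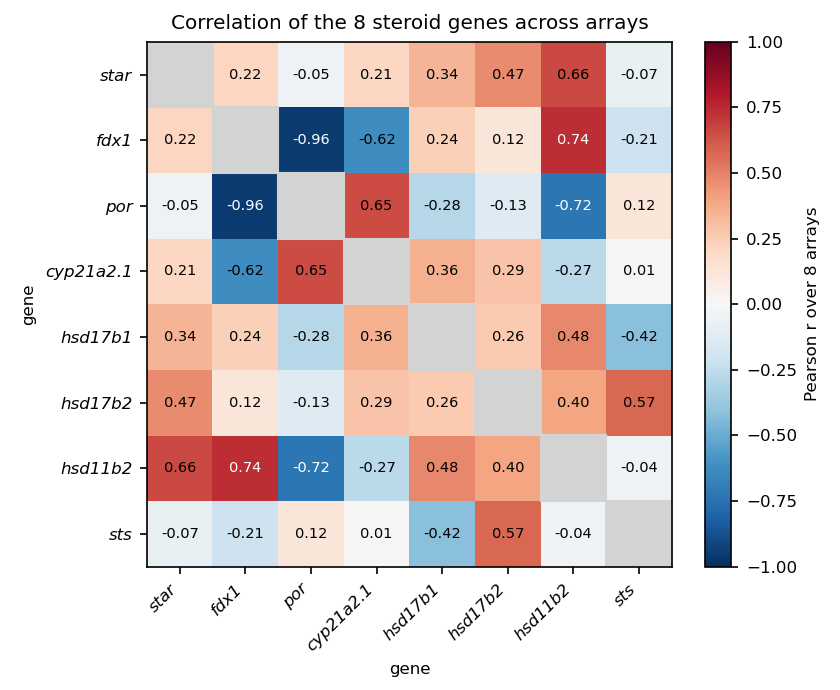
Pearson's r over the 8 arrays for each of the 28 pairs of steroid genes, coloured from -1 to 1. The strongest pair is fdx1 with por at -0.957, and the size of r has a median of 0.285 over the 28 pairs.

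For each member well above background on all 8 arrays, the 3 genes most alike in level over the arrays were taken from 3361 named genes, as a description with no test. Genes marked here as xhyb probes may not read only their own transcript. With star they were borcs8 (r = 0.945, xhyb), hspa5 (r = 0.921), a chaperone of the endoplasmic reticulum, and dclk2 (r = 0.855). With fdx1 they were dpep1 (r = 0.984), a dipeptidase, hltf (r = 0.971) and cog8 (r = 0.961), a subunit of a Golgi tethering complex, and 5 genes reached r of at least 0.95 with it. With por they were fsd1l (r = 0.954), josd2 (r = 0.953, xhyb) and clstn2 (r = 0.940). With cyp21a2.1 they were rbm20 (r = 0.953, xhyb), a splicing factor, osbp2 (r = 0.952), an oxysterol-binding protein, and hip1 (r = 0.948).

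Genes close to hsd17b1 were gpx1 (r = 0.924, xhyb), a glutathione peroxidase, and ube2d4 (r = 0.896). With hsd17b2 they were syt12 (r = 0.943), vrk3 (r = 0.912, xhyb) and brsk1 (r = 0.907), the last falling to 0.501 when 1 array was left out. With hsd11b2 they were cand1 (r = 0.949), lurap1l (r = 0.933, xhyb) and pimreg (r = 0.928).

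Other genes of the pathway were taken from lists of 94 symbols, 86 of them not among the 8 genes above. Of those, 16 matched a probe by accession, which is what being on a probe means below. Of the 16, 14 were tested, and 7 were higher and 7 lower with finasteride, with a median difference of 0.02. None of the 14 passed the limma threshold, adjusted or unadjusted. Those with the lowest p were nr0b1, which encodes a nuclear receptor that in mammals represses steroid synthesis genes, with a difference of -0.31 (95% interval -0.73 to 0.12), and arsa.2, related to arylsulfatase, with 0.33. The values for crem, a cAMP-responsive transcription factor, mc2r, the receptor for corticotropin, arsa.1 and pde8a, a phosphodiesterase of cAMP, were -0.27, 0.36, 0.12 and -0.18. Groups did not overlap for 1 of the 14, arsa.1, against 2.08% of all probes tested, with means of -1.68 ± 0.07 and -1.55 ± 0.10 (SD, n = 4) and an unadjusted limma p of 0.397. The probe of hsd17b14 had no array on which it was well above background, and that of sult1e1 had 2, both with finasteride, so neither was tested. The genes for the side-chain cleavage enzyme, the 17-hydroxylase, 3-beta-hydroxysteroid dehydrogenase and 5-alpha-reductase, the last the target of finasteride, were on these lists. Under the listed symbols none of them matched a probe by accession, so they were not analysed here.

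Markers of other cell types that use these genes were read as well, and their part in the results was not tested. Of the 11 Leydig cell markers, 3 were on a probe (star, fdx1 and vcam1), all tested. Of the 12 interrenal markers, which include star and cyp21a2.1, 6 were on a probe. Their summed level, in multiples of the 75th percentile, ran from 2.78 to 4.24 on control arrays and from 3.10 to 3.42 on finasteride arrays, and most of it came from mrap, read from an xhyb probe, and from star. Of the others, mc2r was low, dbh was well above background on 1 finasteride array alone and pnmt on 0 arrays. Of the 14 kidney tubule markers, which include hsd11b2, 6 were on a probe. Their summed level ran from 6.58 to 7.80 on controls and from 5.89 to 7.40 with finasteride. Most of that sum came from scnn1a, read from an xhyb probe, and from lrp2. Besides hsd11b2, 4 of the kidney tubule markers were tested and 0 passed the adjusted limma threshold. Their differences were -0.74 for slc12a3, -0.30 for lrp2, -0.0058 for scnn1a (xhyb) and 0.29 for nr3c2. The groups of slc12a3 and nr3c2 did not overlap, in opposite directions, where 2.08% of all probes tested had groups that did not overlap. The unadjusted limma p was 0.0224 for slc12a3, which passed the unadjusted threshold, and 0.0814 for nr3c2, which did not. For the Sertoli cell markers named above, the differences were 0.69 for krt18.2, 0.19 for ar and 0.10 for cldn11 (xhyb). For the germ cell markers tested they were 1.00 for spata6, with SDs of 0.03 and 1.22, and 0.29 for piwil1. The groups of krt18.2 and spata6 did not overlap. The unadjusted limma p was 0.00811 for krt18.2 and 0.0712 for spata6, so only krt18.2 passed the unadjusted threshold. None passed the adjusted one. Lists of liver, erythrocyte, and fat body and muscle markers were read too, and 0 of their genes passed the adjusted limma threshold. The unadjusted one was passed by 2 of 5 liver markers tested, 1 of 2 for erythrocyte and 0 of 2 for fat body and muscle. Those that passed, fgg, cyp2a6.1 and epb41, were read from xhyb probes. Of them, cyp2a6.1 and epb41 were well above background on only 1 control array. Over all probes tested, 4.00% passed the unadjusted threshold.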

How the data were processed

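Per the file headers, each array's spot intensity was made with Agilent Feature Extraction 10.7.1.1 on a design that names the JGI 4.1 build. The background correction behind the processed intensity was not given in these sources. The authors' deposited table holds log2 values that matched a quantile normalization of log2 intensity, with a median of 7.25 on each array and the direction of the intensity. The authors' steps for that table were not stated either. From the deposited intensity, log2 processed intensity was averaged over the non-control, non-outlier spots of a probe (at most 2) and each array's 75th percentile was subtracted. Flags for spots well above background are those of the deposited files. A probe was tested if it was well above background on 3 or more arrays in a group, which left 25652. The groups were set against each other by limma (version 3.58.1, R 4.3.3) in a two-sided fit with no term but group, adjusted over all tested probes by Benjamini-Hochberg, and a threshold of 0.05. Intervals are 95% confidence intervals. The number of arrays limits the precision.

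Probe accessions, without version, were matched to RefSeq genes of assembly UCB_Xtro_10.0, from which no coordinates were taken since the arrays use another build. The 8 genes and the lists were chosen with earlier results of these data known. Named were all 8 genes, the 6 other pathway genes of lowest p, the 4 pairs of lowest exact p and, per gene well above background on all arrays, the 3 genes of highest r, of which 1 is not reported here. The relations of pairs used exact permutation tests. Replicate numbers of the 2 groups were not used as a pairing in the main fit. The correlations of same-numbered arrays were 0.296, 0.365, -0.0570 and -0.0329 for numbers 1 to 4. For numbers 1 and 2 the same-numbered array was the best match in both directions, and for 3 and 4 in neither. Same-numbered arrays lay on different slides, which could weaken such a match. The labels do not call the numbers a pairing, and these values cannot decide it. Numbers 1 and 4 had lower 75th percentile intensities than 2 and 3 in both groups. With replicate as a block, the unadjusted limma p was 0.0819 for fdx1 and 0.143 for star, against 0.204 and 0.301 without it. It also fell for por, hsd11b2 and sts, and rose for cyp21a2.1, hsd17b1 and hsd17b2. The exact permutation tests took the 8 arrays as exchangeable, which a pairing would not allow. Alternatives tried were quantile and median scaling, normexp, array weights, filters, slide and replicate block, single slides and leaving out each array. Normexp was run on median signals because the files hold no mean signal. Chosen after seeing the data were the replicate block with slide, the slide interaction and the removal of the first principal component. So were each fdx1 or hsd11b2 spot alone and local background subtraction with an offset of 50.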

Additional observations from a re-analysis of the deposited data

Results flagged for a closer look

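The star level on control 2 was -1.15, far below the other control arrays, which lay between -0.12 and 0.050. The hsd11b2 level on finasteride 2 was -4.49, far below the other finasteride arrays, which lay between -2.94 and -2.63. Each gap to the nearest array was most of its group's range (0.858 and 0.835 of it). Of the 16 groups of 4 arrays examined over the 8 genes, these 2 had an array that stood apart, where chance alone gives about 1 in 20. The 16 groups come from the same 8 arrays and are not independent. In the other group, the array numbered 2 was also the lowest, with star at -1.003 on finasteride 2 and hsd11b2 at -3.90 on control 2. No explanation was tested.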

How the results depend on the processing

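Under each alternative tried, 0 of the 8 genes passed the limma threshold. For fdx1 and por, the sign of the finasteride difference stayed the same under all 21 alternatives. Its size did not, running from 0.10 to 0.61 for fdx1 and from -0.045 to -0.30 for por. It was smallest with array weights for both genes. Among the 21 alternatives, the filters and the blocks for slide, replicate or both could not change the difference. They leave the group means as they are. The replicate block thus returned the 0.39 of fdx1, and it gave 0 genes and 0 probes past the threshold. The cause of the sign changes that follow was not tested. Normexp fitted background means of -2284 on control 4, -1719 on finasteride 4, -799 on finasteride 3 and -126 on finasteride 1, where the levels spanned a narrower range than on the other arrays, and it gave 0.72 for cyp21a2.1, 0.13 for hsd17b1 and 15 pairs past the threshold. Array weights gave -0.33 for hsd11b2, and local background subtraction gave -0.0087 for sts. Slide 1 alone gave 0.27 for star, and slide 2 alone gave -0.12 for hsd17b2 and -0.73 for hsd11b2. Leaving out each array in turn gave -0.16 to 0.47 for hsd11b2, -0.024 to 0.56 for hsd17b2, 0 to 7 probes past the threshold over all probes (7 without control 3, 2 without finasteride 1, 2 or 4) and 0 to 1 pairs. Local background subtraction and slide 2 alone each gave 1 probe, none of them one of the 8 genes. The star and hsd11b2 relation was -0.062 without control 2 and finasteride 2. Pairs past the threshold were 0 with local background subtraction and 0 with the first principal component regressed out. With normexp the fdx1 and por relation was -0.506. The filter for probes well above background on all 8 arrays gave no value for sts. Signal over background limits cyp21a2.1 and sts.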
